A study of Saccharomyces cerevisiae with 11 samples.

Results

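Subtelomeric protein-coding genes of budding yeast were taken as every nuclear protein-coding gene of the R64 (sacCer3) annotation that lies wholly within 20 kb of a chromosome end, with IMD2 left out. This gave 230 of 6002 nuclear protein-coding genes, spread over all 32 ends of the 16 chromosomes with 4 to 11 genes at an end. The other 5771 genes served for comparison. The study asked how snoRNA ends are processed and where the processing factors sit on chromatin. It mapped Cbp20, a subunit of the nuclear cap binding complex (CBC) that joins nascent capped transcripts, and Rnt1, a nuclear RNase III that cuts RNA stem-loops, by ChIP-seq with an anti-myc antibody. Each protein had 2 libraries, so 4 peak lists were examined. All strains were MATa his3Δ1 leu2Δ0 met15Δ0 ura3Δ0 cells grown in YPD at 30 °C. The Rnt1 strain carried RNT1-myc13::NAT. The strain called Cbp20-myc is listed with CBP80-myc13::NAT, that is with the tag on the other CBC subunit, while the study's strain list gives a HIS marker and its text says that the gene of Cbp20 was tagged. The sources thus differ, and the strain is called Cbp20-myc here as in the labels. No untagged control was analysed. The methods say in general that experiments were biologically replicated, without naming the cultures behind each library.

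Budding yeast chromosomes end in irregular TG-rich telomeric repeats. Next inwards come, at some ends, 1 or more Y′ elements, which carry a helicase-like open reading frame, and then the X element. The region behind them holds gene families that are shared between ends, among them the seripauperin (PAU), COS, maltose and hexose transporter genes, and genes used only in particular growth conditions. Silent information regulator (Sir) proteins keep some of these genes at low expression. In the annotation used, 17 of the 32 ends hold a Y′ element.

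Sequences under the peaks that recur at chromosome ends are given first, because many of these genes share sequence with other loci and the peaks rest on reads that had to map to 1 place. All are from R64 (sacCer3), written 5′ to 3′ on the strand named. In the first 3, on the plus strand, capitals mark the telomere-like word TGGGTGTGG or its reverse complement CCACACCCA, including matches that overlap. The first is the whole coding sequence of YLL066W-B, an uncharacterized gene at XII:5605-5775, chosen because it was the only member with a Rnt1 peak in both replicates and none of Cbp20. The second is the Rnt1 peak of replicate 1 at XIII:5457-5684, under which no protein-coding gene lies, chosen because it shares an unbroken run of 61 bases with YLL066W-B. The third is the Rnt1 peak of replicate 1 at VIII:562418-562596, which ended 47 bp from the right end of chromosome VIII.
YLL066W-B: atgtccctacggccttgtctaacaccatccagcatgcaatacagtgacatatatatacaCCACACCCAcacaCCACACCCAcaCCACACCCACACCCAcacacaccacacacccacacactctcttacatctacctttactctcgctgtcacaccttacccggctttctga
Rnt1 peak on chromosome XIII: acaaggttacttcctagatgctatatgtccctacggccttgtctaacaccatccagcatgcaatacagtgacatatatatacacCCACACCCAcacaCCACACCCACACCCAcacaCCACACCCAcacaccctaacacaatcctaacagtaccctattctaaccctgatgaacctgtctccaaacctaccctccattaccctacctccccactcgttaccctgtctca
Rnt1 peak on chromosome VIII: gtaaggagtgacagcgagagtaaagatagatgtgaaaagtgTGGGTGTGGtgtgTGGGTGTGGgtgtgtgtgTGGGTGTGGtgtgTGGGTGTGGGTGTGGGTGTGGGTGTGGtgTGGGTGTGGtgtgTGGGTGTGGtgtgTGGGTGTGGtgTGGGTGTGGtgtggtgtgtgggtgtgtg
The fourth sequence is the stretch of YRF1-1, a Y′ helicase gene, under its downstream Cbp20 peak of replicate 1 (IV:1530151-1530334, plus strand). Capitals mark the 89 bases, 1408 to 1496 bp before the last base of the gene, that lay at this distance under a Cbp20 peak of replicate 1 in each of 6 Y′ helicase genes.
YRF1-1: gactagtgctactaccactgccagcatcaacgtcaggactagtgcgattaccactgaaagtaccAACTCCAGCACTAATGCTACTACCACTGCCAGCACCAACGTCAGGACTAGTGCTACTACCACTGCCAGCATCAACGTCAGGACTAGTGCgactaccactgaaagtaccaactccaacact
The last 2 come from the near-identical acid phosphatase genes PHO11 (I:225712-225771) and PHO12 (VIII:552351-552410), both on the plus strand, where capitals mark the first of their 4 differences over 1404 bases. Counted from the first base of the coding sequence, with the base of PHO11 first and that of PHO12 last, this is A273G.
PHO11: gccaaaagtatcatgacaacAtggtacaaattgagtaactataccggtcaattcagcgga
PHO12: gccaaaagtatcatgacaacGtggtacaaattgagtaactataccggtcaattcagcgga

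Subtelomeric genes carried far fewer Cbp20 peaks than the rest of the genome. A gene is said to have a peak when at least 1 bp of it lies under one, and its covered share is the percentage of its bases under peaks of that list. In Cbp20-myc replicate 1, 38 of the 230 genes (16.5%) had a peak, against 51.4% of all nuclear protein-coding genes. In replicate 2 the number was 54 (23.5%), against 49.2%. The mean covered share was 8.13% and 11.3% in the 2 replicates, against 32.9% and 31.4% for the other genes. The mean of the replicates was 9.72% ± 2.25 (SD, n = 2) for the subtelomeric genes and 32.2% ± 1.06 (SD, n = 2) for the others. The difference was -22.5 percentage points ± 3.30 (SD, n = 2), so it exceeded the spread between replicates in size. The subtelomeric mean was the lower one in each replicate. Both sets are read from the same libraries and genes are not replicates, so no p-value was computed.

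Rnt1 showed the same direction at a lower level. In Rnt1-myc replicate 1, 10 of the 230 genes (4.35%) had a peak, against 13.5% of all genes, and in replicate 2 26 did (11.3%), against 20.6%. The mean covered share was 1.46% and 4.69%, against 7.24% and 12.1% for the other genes. The difference was -6.57 percentage points ± 1.12 (SD, n = 2). The 2 Rnt1 lists differ in size, with 1238 and 1741 peaks genome-wide, whereas the Cbp20 lists hold 3801 and 3648. The lists give no peak heights and the depth of the libraries is unknown, so a gene without a peak is not shown to be free of either protein.

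Counting only peaks seen in both replicates, 34 subtelomeric genes (14.8%) had Cbp20, where 44.8% of all genes did. Rnt1 was found in both replicates on 7 (3.04%), where 12.9% of all genes had it. With at least 50% of the gene covered in both replicates the counts were 17 for Cbp20, against 27.4% of all genes, and 3 for Rnt1, against 6.6% of all genes. The 34 and the 7 together make 35 genes, since 6 genes had both proteins in both replicates. Among the other genes, 742 of the 767 with Rnt1 in both replicates also had Cbp20 in both, of 2657 with Cbp20. At the opposite extreme, 167 subtelomeric genes (72.6%) had no peak in any of the 4 lists, compared with 42.6% of the other genes. No peak on a subtelomeric gene reached a snoRNA, snRNA or tRNA gene.

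**Figure D1:**
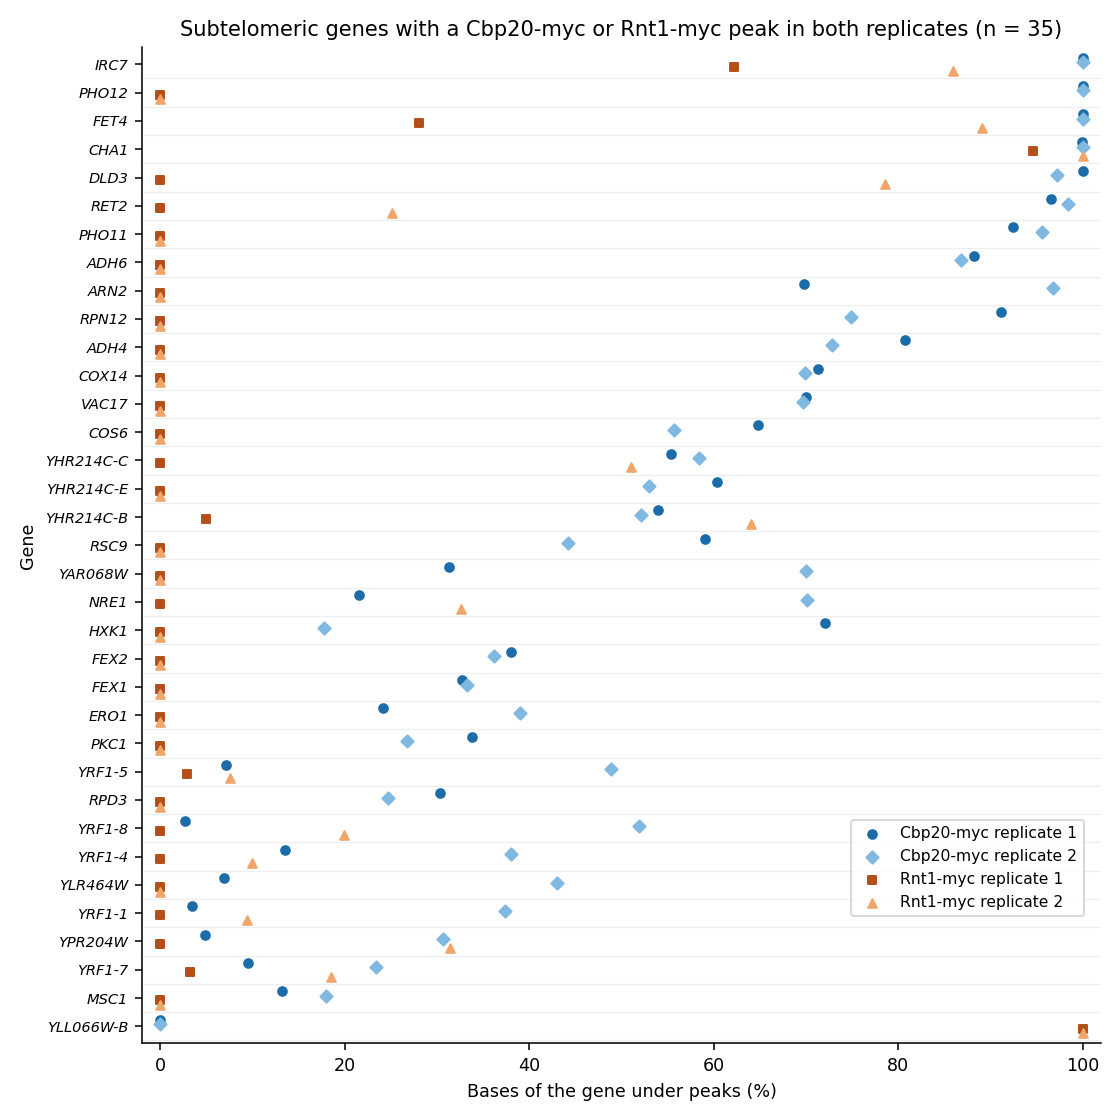
Percentage of each gene's bases under peaks in the 4 lists, for the 35 subtelomeric genes with a Cbp20-myc or a Rnt1-myc peak in both replicates. Each point is 1 gene in 1 library (Cbp20-myc circles and diamonds, Rnt1-myc squares and triangles). Genes are ordered by their mean Cbp20 share, and the Y′ helicase genes (YRF1 copies and YPR204W) have their replicate 2 diamond far to the right of the replicate 1 circle.

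Among the genes that were covered most by Cbp20 were several of metabolism and transport. IRC7, which encodes a cysteine-S-conjugate beta-lyase, was covered over 100% of its bases in both Cbp20 lists and over 62.2% and 85.9% in Rnt1 replicates 1 and 2. Its nearer edge is 4935 bp from the right end of chromosome VI. CHA1, the ammonia-lyase that breaks down serine and threonine, was covered over 99.9% and 100% by Cbp20 and over 94.6% and 100% by Rnt1. CHA1 was thus the subtelomeric gene with the most complete coverage by both proteins. FET4, a low-affinity iron transporter, was covered over 100% of its bases in both Cbp20 lists. Its Rnt1 share was 28.1% in replicate 1 and 89.1% in replicate 2. These 3 genes had 100% of their 50-base words found only once in the genome.

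DLD3, annotated as a D-lactate dehydrogenase, was covered over 100% and 97.2% by Cbp20, and over 0% and 78.5% by Rnt1. RET2, the delta subunit of the COPI vesicle coat, showed 96.6% and 98.4% for Cbp20, and 0% and 25.2% for Rnt1. In both genes Rnt1 thus rested on replicate 2 alone. ADH6, an NADP-dependent alcohol dehydrogenase, had 88.3% and 86.8% of its bases under Cbp20 peaks, and ADH4, another alcohol dehydrogenase, 80.8% and 72.8%. ARN2, a siderophore transporter, showed 69.8% and 96.8%. RPN12, a subunit of the proteasome lid, showed 91.2% and 74.9%. COX14, which acts in the assembly of cytochrome c oxidase, showed 71.4% and 70.0%. None of these last 5 genes had a Rnt1 peak in either replicate.

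The secreted acid phosphatases PHO11 and PHO12 were both almost wholly under Cbp20 peaks, with shares of 92.5% and 95.6% for PHO11 and 100% and 100% for PHO12. Neither had a Rnt1 peak. The copies are identical at 99.7% of 1404 bases (A273G, printed above, is 1 of the 4 differences), and 14.5% and 15.5% of their 50-base words were unique. The fluoride exporter genes FEX1 and FEX2, which differ at 8 of 1128 bases and were chosen after their values were seen, were each covered in 1 block near the start codon. The block ran from 77 to 445 bp after the first base in FEX1 replicate 1 and from 53 to 427 bp in replicate 2. In FEX2 it ran from 62 to 490 bp and from 56 to 463 bp. All 8 base differences of the pair lie beyond these blocks, from base 628 to base 1113. MAL12 and MAL32, alpha-glucosidases that split maltose and differ at 8 of 1755 bases, had Cbp20 peaks in replicate 1 alone, with shares of 16.9% and 15.7%. For such pairs the peaks of 1 copy and the other cannot be told apart by most of their sequence.

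RSC9, a subunit of the RSC chromatin remodeler, had 59.1% and 44.2% of its bases under Cbp20 peaks. PKC1, the protein kinase C of cell wall integrity, had 33.8% and 26.7%, and the histone deacetylase gene RPD3 30.3% and 24.7%. VAC17, which links vacuoles to a myosin motor, had 70.0% and 69.7%. ERO1, which oxidises thiols in the endoplasmic reticulum, had 24.2% and 38.9%. The 5 genes lie 11482 to 18000 bp from an end, were named after their values were seen, and had no Rnt1 peak in either list. Of the 71 subtelomeric genes whose product is given as uncharacterized, 3 had Cbp20 in both replicates (4.23%), namely YAR068W, YHR214C-E and YLR464W, and of the 159 with a named product 31 did (19.5%). Among the other genes the shares were 24.6% and 48.1%. YLR464W overlaps the Y′ helicase gene YRF1-4. Its 64 covered bases in Cbp20 replicate 1 lie under a peak of YRF1-4, so the 2 are not separate observations there.

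A few genes separated the replicates of 1 protein. YFL067W, an uncharacterized gene 835 bp from the left end of chromosome VI, was covered over 100% of its bases in Cbp20 replicate 2 and not at all in replicate 1. IRC24, of the sepiapterin reductase family, showed 0% in replicate 1 and 61.1% in replicate 2. HXK1, hexokinase 1, was higher in replicate 1, at 72.1%, than in replicate 2, at 17.7%. For Rnt1, 3 uncharacterized genes at the tips were covered by replicate 2 alone, YCR108C and YOL166W-A over 100% and YNR077C over 91.0% of their bases. They begin 432, 584 and 792 bp from their chromosome ends. Rnt1 replicate 1 also covered part of the outermost 1 kb at the ends of YCR108C (19.2%) and YNR077C (38.1%). At the end of YOL166W-A it covered 0%. NRE1, of the sepiapterin reductase family as IRC24, showed 21.6% and 70.1% for Cbp20 and 0% and 32.5% for Rnt1.

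Peaks confined to 1 replicate were more often those of replicate 2. For Cbp20, 4 genes had a peak in replicate 1 alone and 20 in replicate 2 alone, and 10 of the 20 were not Y′ helicase genes. Among these 10, however, YBL113C, YEL076C-A, YEL076C, YFL067W, YHL050C and YHR219W lie within annotated telomeric stretches that hold a Y′ element. YEL076C also lies inside YEL076C-A. The 4 were MAL12, MAL32, FRE2, a ferric and cupric reductase with 7.12% of its bases covered, and the uncharacterized YMR320W with 31.0%. For Rnt1 the counts were 3 and 19. The 3 were YBL113C with 7.40%, YER190C-B with 28.2% and the Y′ helicase gene YRF1-2 with 4.20%, all within 1 kb of an end. YER190C-B lies inside YRF1-2 and both were covered by the same peak, so they are not separate observations. These genes were named after their values were seen. Among the other genes Cbp20 had 392 genes in replicate 1 alone and 239 in replicate 2 alone, the opposite order, and Rnt1 had 32 and 445.

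Genes under no peak were also found where sequence was unique. The 5 longest with at least 90% unique 50-base words and no peak in any list were PDR18 (4002 bp) and NFT1 (3657 bp), both annotated as multidrug transporters, SRO77 (3033 bp), RDS1 (2499 bp) and the uncharacterized YKL222C (2118 bp). SRO77 is annotated as a putative Rab GTPase-binding protein. At the 20 kb limit itself, RET2, YJR154W and FDC1 lay just inside, ending 19999, 19968 and 19840 bp from the end, and of these only RET2 had peaks. The 3 genes just outside, YPR195C, YMR315W-A and LYS1, which encodes the last enzyme of lysine synthesis, had none in any list.

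Coverage was then followed along the distance from the chromosome end to the nearer edge of the gene. In Cbp20 replicate 1 the mean share of all genes was 3.93% within 5 kb of an end (n = 56), 6.66% from 5 to 10 kb (n = 65), 7.41% from 10 to 15 kb (n = 65) and 16.8% from 15 to 20 kb (n = 59). It went on to 17.4% from 20 to 25 kb, 26.7% from 30 to 35 kb and 31.9% from 45 to 50 kb, against 33.5% for the 5306 genes at 50 kb or more. The low coverage thus ran on past 20 kb, and no step stood at that limit. In Cbp20 replicate 2 the first bin was higher, at 14.0%, followed by 8.57%, 7.85% and 18.0%. Without the 16 Y′ helicase genes, of which 14 fall in the first bin, that bin stood at 4.58% in replicate 1 and 10.6% in replicate 2. It still held other genes of telomeric stretches with a Y′ element, such as YBL113C and YFL067W.

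**Figure D2:**
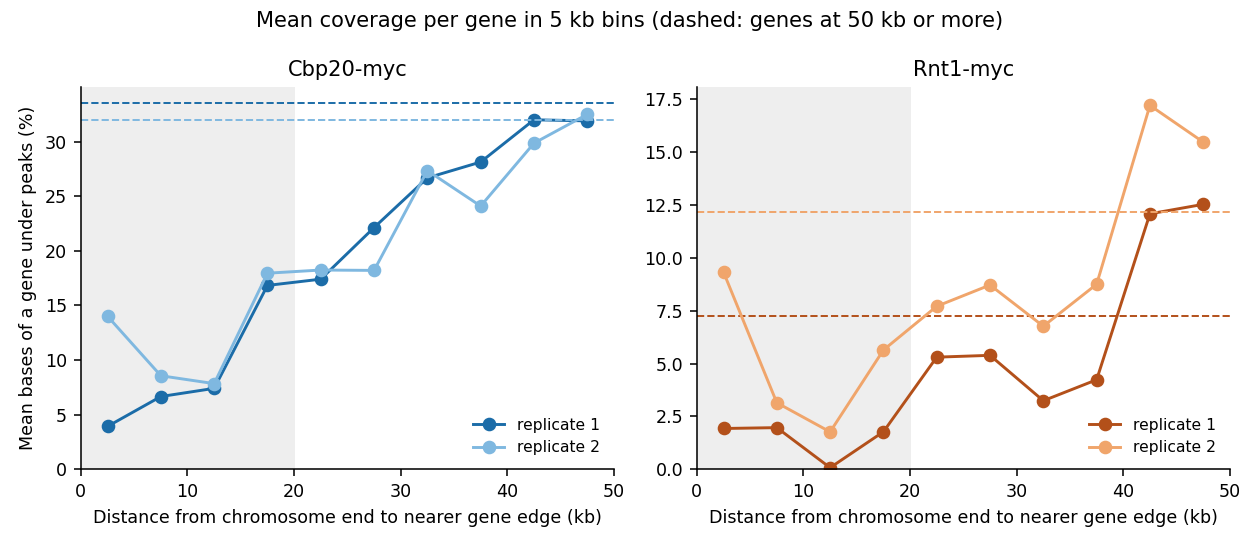
Mean percentage of a gene's bases under peaks (y axis) in 5 kb bins of the distance from the chromosome end to the nearer gene edge (x axis), with 1 line per replicate. The dashed lines give the mean of the genes at 50 kb or more and the grey area the outer 20 kb. Cbp20-myc climbs to 31.9% and 32.5% at 45 to 50 kb, and Rnt1-myc lies lowest at 10 to 15 kb, at 0.0769% and 1.77%.

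For Rnt1 the lowest bin was that from 10 to 15 kb, where the mean share was 0.0769% in replicate 1 and 1.77% in replicate 2. The bin within 5 kb stood at 1.93% and 9.33%. At 40 to 45 kb the means were 12.1% and 17.2%, above those of the genes at 50 kb or more (7.25% and 12.1%) in both replicates. Across the 230 genes, Spearman's rho between distance and covered share was 0.13 and -0.08 for the Cbp20 replicates and -0.16 and -0.25 for the Rnt1 replicates, given as a description since neighbouring genes share peaks, and most genes share the value 0.

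Within the 20 kb, the outer genes (nearer edge under 10 kb, n = 121) differed from the inner ones (n = 109) in Cbp20 by less than the spread between replicates, with mean shares of 5.40% and 11.2% in replicate 1 and 11.1% and 11.5% in replicate 2. The difference, outer minus inner, was -3.11 percentage points ± 3.75 (SD, n = 2), and it turned to 5.39 when the limit was set at 10 kb and the split between outer and inner genes at 5 kb. For Rnt1 the outer genes had 1.95% and 6.01% and the inner genes 0.914% and 3.22%. That difference was 1.91 ± 1.24 (SD, n = 2) and turned to -2.42 with a limit of 30 kb and the split at 15 kb, and to -0.294 among genes of at least 1000 bp.

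**Figure D3:**
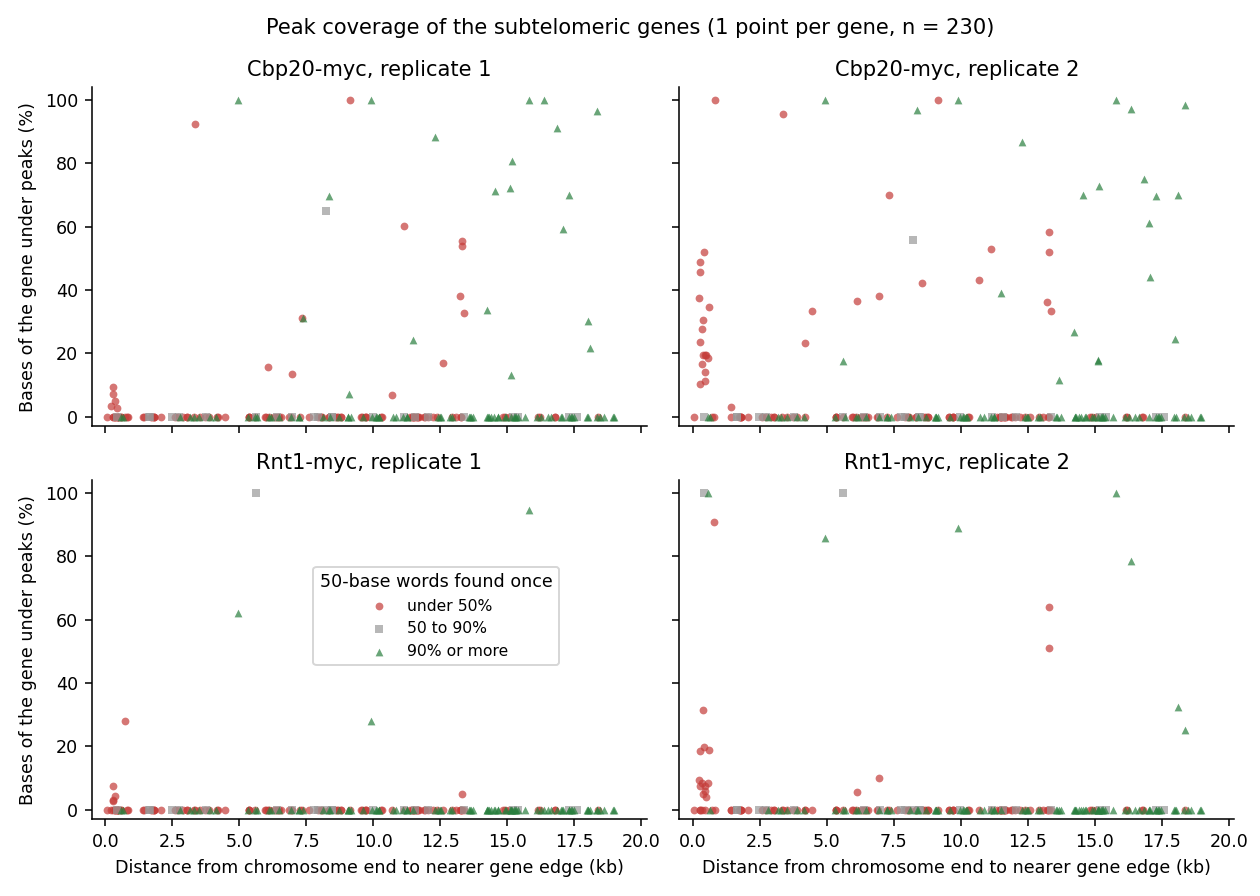
Percentage of bases under peaks (y axis) for each of the 230 subtelomeric genes against the distance from the chromosome end to the nearer gene edge in kb (x axis), 1 panel per list. Colour and shape give the share of the gene's 50-base words that occur once in the genome (under 50%, 50 to 90%, 90% or more). Most points lie at 0, and a column of repetitive genes stands within 1 kb of the end in Cbp20-myc replicate 2 and, lower, in Rnt1-myc replicate 2.

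Subtelomeric genes were far more repetitive than the others. Only 41.3% of them (95 genes) had at least 90% of their 50-base words at 1 place in the genome, compared with 95.9% of the other genes, and 112 had under 50%. The median was 58.3% unique words against 100%. Among the 95 unique genes the mean Cbp20 share was 13.3% and 13.7% in the 2 replicates, against 32.5% and 30.6% for the 5533 unique other genes. The difference was -18.1 percentage points ± 1.59 (SD, n = 2). Cbp20 in both replicates was seen on 18 of the 95 (18.9%) and on 45.3% of the unique other genes. Rnt1 was seen in both on 3 (3.16%), against 11.9%. The lower coverage was thus present among genes with unique sequence. Subtelomeric genes with under 50% unique words (n = 112) had a mean Cbp20 share of 4.86% and 11.1%. Those with 50 to 90% (n = 23) had 2.82% and 2.42%. The 152 other genes with under 50% unique words had a mean Cbp20 share of 34.3% and 45.1%. The part of repeated sequence in the difference was not tested.

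**Figure D4:**
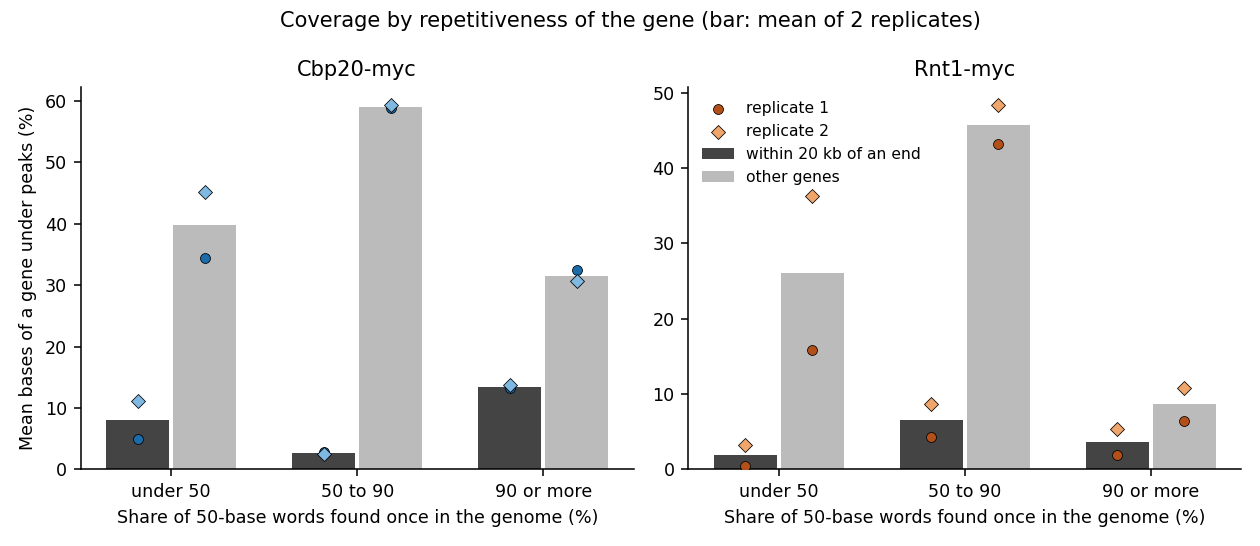
Mean percentage of a gene's bases under peaks (y axis) by the share of its 50-base words found once in the genome (x axis), for subtelomeric genes (dark bars, n = 112, 23 and 95) and other genes (light bars, n = 152, 86 and 5533). Bars are means of 2 replicates and points the replicates. The dark bar is below the light one in every class for both proteins.

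The replicates also agreed less on subtelomeric genes. The Cbp20 bases shared by both replicates made up a fraction of 0.451 of the bases under either on the 230 genes, and 0.759 on the other genes. Among the 95 unique genes the fraction was 0.734. Without the 16 Y′ helicase genes, but with the other genes of telomeric stretches that hold a Y′ element, it was 0.667. For Rnt1 it was 0.144 on the 230 genes, 0.392 on the 95 unique ones and 0.515 on the other genes.

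Gene length moved with these results. The median length was 1017 bp for subtelomeric genes and 1215 bp for the others, and 66 subtelomeric genes were under 500 bp. Their Cbp20 share was 2.94% and 2.92%, against 36.3% and 33.5% for the 827 other genes of that size. Among genes of at least 1000 bp, 28 of 116 subtelomeric genes (24.1%) had Cbp20 in both replicates, compared with 46.3% of 3475 others. The difference in mean share was -13.5 percentage points there, and -14.6 when all bases were pooled by gene length.

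Peaks were also counted over lists of gene families. Of 17 lists, 14 had a subtelomeric member, and 94 of the 230 genes were in a list. Of the subtelomeric genes 72.6% had no peak in any of the 4 peak lists, and of all genes 43.7%. No peak of any kind lay on the 48 members of 9 gene lists. Among these were all 19 subtelomeric seripauperins, cell wall mannoproteins of anaerobic growth, of which 17 had under 50% unique words. The 8 genes of thiamine and vitamin B6 synthesis, the 5 aryl-alcohol dehydrogenases, the 3 hexose transporters and the 2 silent mating-type genes also had none. All 8 thiamine and vitamin B6 genes, 2 of the 3 hexose transporters and the 2 silent mating-type genes had under 50% unique words. The aryl-alcohol dehydrogenases had a median of 79.7% unique words, and none was under 50%. Of the 11 COS genes, whose products help to sort cargo to the vacuole, only COS6 had a peak, with Cbp20 over 64.8% and 55.7% of its bases. Of the 6 alcohol, polyol and formate dehydrogenases, ADH4 and ADH6 had Cbp20 in both replicates, and of the 4 iron and siderophore genes ARN2 did. Outside the 20 kb, 9 of the 13 iron and siderophore genes had Cbp20 in both replicates. So did 2 of the 5 alcohol, polyol and formate dehydrogenases there, 1 of the 5 metal and arsenic genes and the 1 vacuolar sorting receptor. None of the 5 seripauperins, 6 hexose transporters, 6 maltose, sucrose and isomaltose genes, 2 silent mating-type genes or 1 Hsp31-like gene outside did. In all, 10 of the 94 listed genes and 24 of the 136 unlisted genes had Cbp20 in both replicates, against the 44.8% of all genes.

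Among the 14 lists, the Y′ helicase genes showed the largest gap between the Cbp20 replicates. The 16 copies, 8 named YRF1 and 8 taken by their product after the list was made, had a Cbp20 peak in 6 cases in replicate 1, where 51.4% of all genes had one, and in all 16 in replicate 2, where 49.2% did. Their mean Cbp20 share was 2.57% and 25.8%. YRF1-8, which had the highest mean over the 4 lists, showed 2.71% and 51.9% for Cbp20 and 0% and 19.9% for Rnt1. YRF1-5 showed 7.14% and 48.9% for Cbp20 and 2.93% and 7.55% for Rnt1. YRF1-7 showed 9.50% and 23.4% for Cbp20 and 3.21% and 18.5% for Rnt1, and YRF1-1 3.41% and 37.4% for Cbp20 and 0% and 9.44% for Rnt1. YPR204W, an unnamed copy, showed 4.84% and 30.6% for Cbp20 and 0% and 31.4% for Rnt1. Replicate 2 was the higher one in all of these comparisons.

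In replicate 1, each of the 6 Y′ genes with Cbp20 had a narrow peak at the same place, with its centre between 1421.5 and 1517.5 bp before the last base of the gene. The 89 bases common to these peaks, capitalised in the YRF1-1 sequence, occurred exactly in 15 of the 16 Y′ helicase genes. In replicate 2, a Cbp20 peak reached them in all 15. The median unique share of the 16 genes was 0.0538%, so these copies cannot be told apart by sequence over nearly all of their length, and how the reads were divided among them was not tested.

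Rnt1 in both replicates was found on CHA1, IRC7, FET4, YRF1-5, YRF1-7, YHR214C-B and YLL066W-B. YHR214C-B, a Ty1 gag-pol gene 13297 bp from the right end of chromosome VIII, had 5.00% and 64.0% of its bases under Rnt1 peaks and 53.9% and 52.1% under Cbp20 peaks. Its first part is annotated again as YHR214C-C, the gag gene, which had 0% and 51.0% for Rnt1 and 55.3% and 58.5% for Cbp20. The 2 share their bases and are not separate observations.

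YLL066W-B had 100% of its 171 bases under Rnt1 peaks in both replicates and 0% under Cbp20 peaks in both. It begins 5604 bp from the left end of chromosome XII, between the Y′ helicase genes YLL067C and YLL066C. The printed sequence holds 4 starts of the telomere-like word, and YLL066W-B was the only 1 of the 230 genes that held the word (0.435%), while 0.641% of the other genes did.

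The same word was more common under peaks near chromosome ends than under peaks elsewhere for both proteins, and the share of end peaks that held it was higher for Rnt1. Within 20 kb of an end, 17 of 34 Rnt1 peaks of replicate 1 (50%) held it, and 6 of 1204 peaks elsewhere (0.498%). In replicate 2 it was in 22 of 66 (33.3%) and in 7 of 1675 (0.418%). Cbp20 peaks within 20 kb of an end held it in 11 of 72 cases (15.3%) in replicate 1 and in 15 of 105 (14.3%) in replicate 2. Elsewhere they held it in 16 of 3729 (0.429%) and 19 of 3543 (0.536%). Neighbouring starts of the word formed 22 stretches within 1 kb of an end and 11 further in, within the 20 kb. Cbp20 peaks of both replicates reached 6 and 5 of these, and Rnt1 peaks of both replicates 10 and 8. Many stretches with Rnt1 thus also had Cbp20. The stretch in the printed peak on chromosome VIII was covered over 100% by Cbp20 in replicate 2 and 0% in replicate 1. Of all 300-bp windows of the nuclear genome 0.174% held the word, and of those within 20 kb of an end 1.21%. A match is a description of the letters and not a binding site.

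Few of the peaks that held the word touched a subtelomeric gene. Of the 34 Rnt1 peaks of replicate 1 within 20 kb of an end, 11 touched a subtelomeric gene, and of these 1 held the word. In replicate 2 the numbers were 34 of 66, and 6. The Rnt1 lists had a peak within 1 kb of the tip at 13 and 22 of the 32 ends, 12 ends being common to both, and the Cbp20 lists at 6 and 15, with 6 common to both. The outermost 1 kb was covered over 9.997% and 47.1% of its bases by Rnt1 and over 4.62% and 14.6% by Cbp20. The mean over the whole 20 kb was 1.54% and 6.10% for Rnt1 and 5.66% and 9.18% for Cbp20. The tips were thus more covered by Rnt1 than the 20 kb as a whole in both replicates.

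Chromosome ends differed widely. At 14 of the 32 ends no gene had Cbp20 in both replicates, and 15 of the 34 genes that did came from 4 ends. The 34 include overlapping genes, YLR464W with YRF1-4 and YHR214C-B with YHR214C-C. On the right arm of chromosome VI, 4 of 6 genes had Cbp20 in both replicates, IRC7, HXK1, RPN12 and RET2, and the mean share was 54.2%. On the right arm of chromosome VIII it was 4 of 7 genes with a mean of 40.5%, all of them either PHO12 or within the YHR214C group. The ends with Rnt1 in both replicates numbered 7.

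Genes were also split by the direction of transcription. The 129 genes transcribed towards the end had a mean Cbp20 share of 7.34% and 11.98%, and the 101 transcribed away from it 9.14% and 10.4%. For Rnt1 the means were 1.35% and 2.69% towards the end and 1.60% and 7.24% away from it. No order held in both Cbp20 replicates. All 16 Y′ helicase genes are transcribed towards the end, and without them the means of that group were 8.02% and 10.02% for Cbp20 and 1.45% and 1.88% for Rnt1, below the genes transcribed away from the end in all 4 lists. Single genes weigh on these means. The group transcribed away holds YLL066W-B, with 100% in both Rnt1 lists, and YFL067W, with 100% in Cbp20 replicate 2. It also kept YER190C-B, which shares its Rnt1 peak with the removed YRF1-2. Whether the order holds without single genes was not tested.

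Coverage was last followed along the gene, in 10 equal parts from start to stop codon. The 33 subtelomeric genes of at least 300 bp with Cbp20 in both replicates were covered most in the third part, at 63.9% and 73.8% of bases, and at 44.4% and 47.2% in the last. The 2569 other genes rose instead to 74.0% in the ninth part of replicate 1 and 71.2% in the eighth of replicate 2. The 33 include 6 Y′ helicase genes of nearly the same sequence. They also include the overlapping YLR464W with YRF1-4 and YHR214C-B with YHR214C-C. They are thus not 33 separate observations, and no profile without these genes was computed. For Rnt1 only 6 subtelomeric genes could be profiled.

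**Figure D5:**
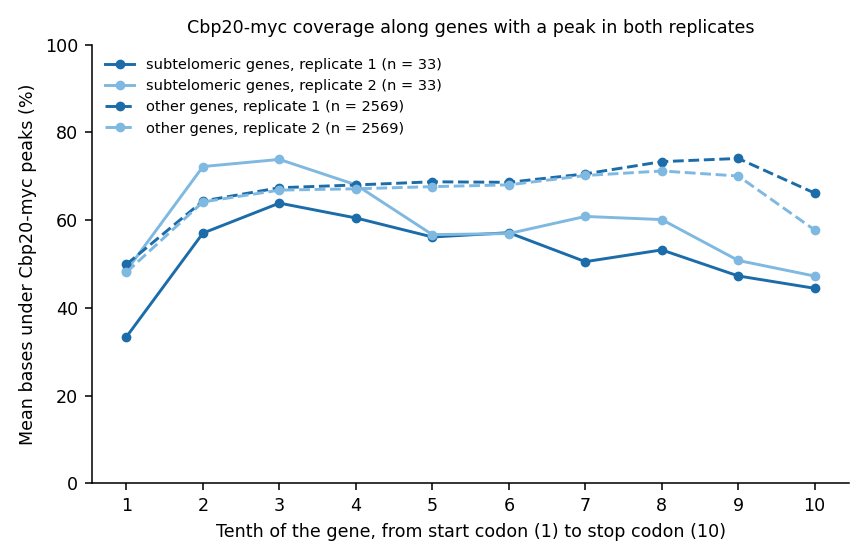
Mean percentage of bases under Cbp20-myc peaks (y axis) in each of 10 equal parts of the gene from start to stop codon (x axis), for genes of at least 300 bp with a peak in both replicates. Solid lines are the 33 subtelomeric genes and dashed lines the 2569 others, 1 line per replicate. The solid lines are highest in the third part and lie below the dashed ones from the fifth on.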

How the data were processed

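Of 11 samples of the study, only the 4 of ChIP-seq were used, and RNA-seq (7 samples) was not analysed here. The deposited files hold peak start and end coordinates in bp, with no heights or scores. Per the methods of the authors, read pairs were aligned to sacCer3 with Bowtie2, uniquely mapped reads with a mapping quality of at least 30 were kept, and MACS2 called peaks with default options at a q-value below 0.05. TopHat is also listed in the processing notes of the second replicates. Versions and the control used for calling are not given in the sources used here. Each library has its own list.

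Covered shares were computed per gene from the NCBI R64 annotation (Python 3, numpy), with distances measured from the chromosome end. A position counted as unique where the 50-base word starting there occurs once in the genome, on either strand. The computation was tested on simulated data against bedtools. Values are means over 2 replicates with SD. With 2 replicates of each protein and no second condition, no test between samples was run. The members and gene lists were chosen with earlier results of these data known. Named are the 12 genes with the highest share of each protein, those nearest an end, those that differ most between replicates, the longest without peaks, those with Rnt1 alone, the leading gene of each list and those beside the limit. Other names are marked as chosen after their values were seen.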

Additional observations from a re-analysis of the deposited data

How the results depend on the processing

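No paired analysis was possible because the results are values over genes and come from no test between groups of samples. Over the alternatives run, the differences between subtelomeric and other genes kept their sign in both proteins, and 56 of 84 values stayed near the reported one, that is within 1 SD between replicates or, for counts, within 1.5 times. The 56 include values that could not have moved further. With 2 replicates, leaving 1 out always keeps a difference within 1 SD. Leaving out genes whose peaks reach a snoRNA, snRNA or tRNA gene removed no subtelomeric gene. The cause of the shifts below was not tested.

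The share of genes with Cbp20 in both replicates was 8.41% with a 10 kb limit, against 44.8% of all genes. It was 7.39% with at least 50% of the gene covered, against 27.4% of all genes. Among genes of at least 1000 bp it was 24.1%, against 46.3% of the others. With the wider 50% of peaks it was 6.96%, and the share over all genes is not given for that setting. A peak in replicate 1 alone considered was seen on 16.5%, against 51.4% of all genes, and in replicate 2 on 23.5%, against 49.2%. For Rnt1 the share with a peak in both replicates was 4.62% with a 30 kb limit, against 12.9% of all genes. It was 1.30% with 50% covered, against 6.6% of all genes, and 5.17% from 1000 bp on, against 12.1% of the others. With wider peaks it was 0.435%, again without a share over all genes. In single lists, 4.35% had a peak in replicate 1, against 13.5% of all genes, and 11.3% in replicate 2, against 20.6%.

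The Cbp20 difference from other genes was -18.0 percentage points with wider peaks, -18.1 among genes unique by 50-base words, -13.5 from 1000 bp on and -14.6 by gene length, and -24.8 to -20.1 with 1 replicate left out. The Rnt1 difference was -4.97 and -4.62 among genes unique by 50-base and 100-base words, -4.24 from 1000 bp on, -5.43 without repeated families and -4.69 by gene length.

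The difference between outer and inner genes changed sign with the setting. With a 10 kb or 30 kb limit the split between outer and inner genes moved as well, to 5 kb and 15 kb. For Cbp20 it was 5.39 with a 10 kb limit and -10.1 with 30 kb. For Rnt1 it was 3.61 with 10 kb, -2.42 with 30 kb, 0.359 with wider peaks, 3.54 and 5.34 among genes unique by 50-base and 100-base words, -0.294 from 1000 bp on and 0.262 by gene length. Leaving out the Y′ helicase genes, or genes that overlap another, both chosen after seeing the data, left all 6 results near the reported values.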
